A study of Mus musculus with 19 samples.

Results

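Tubulins, the proteins that assemble, decorate and sever microtubules, and the neuronal intermediate filaments make up the shaft of the axon. The 51 genes described here were taken by name from the deposited gene table: tubulins and their folding cofactors, stathmins, plus-end and minus-end proteins, structural microtubule-associated proteins (MAPs), the CRMP family, severing enzymes and the neurofilament genes with Ina and Prph, all protein coding. They were 51 of 12629 genes with values, of which 10750 were protein coding, and every one of them was tested. Dcx, Tuba3a, Tuba3b, Tuba8 and Tubb1 match the same names but had no row among the values and were not analysed here.

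RNA-seq was performed on GFP-expressing neurons sorted by FACS out of dorsal root ganglia (DRGs) of the left side, C5 to C8, 8 weeks after AAV5 injection. GFP-naive (n = 5) received AAV5-fGFP and no lesion, and GFP-crush (n = 4) received the same virus with a crush of the dorsal roots at the time of injection. α9k1-naive (n = 6) and α9k1-crush (n = 4) received AAV5-α9-V5 together with AAV5-kindlin1-GFP, without and with the crush. All 4 groups were thus injected with virus, and the sort selected the cells carrying fGFP or kindlin1-GFP, so that α9 itself was not selected for. The promoters were CMV for fGFP and kindlin1-GFP and CAG for α9-V5, none of them restricted to neurons. The labels name C57BL/6 mice, with the α9k1 groups given as a9k1 overexpression and the others as wild-type, whereas the methods of the study name adult male Lewis rats of 2 months. The reads were aligned to the mouse genome, and 3.87% to 4.05% of aligned bases were mismatched. The study states 4 to 6 biological replicates per condition, but nothing in the labels says which libraries came from separate animals. The p-values then measure the spread between these libraries.

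In the axon, αβ-tubulin dimers polymerise into microtubules that carry transport and push the growth cone forward, while neurofilaments built from Nefl, Nefm and Nefh set the calibre of large myelinated axons. After injury of the peripheral branch, sensory neurons are known to lower neurofilament mRNAs and to raise tubulin and peripherin (Prph) mRNAs. Stathmins bind free tubulin, MAPs stabilise the lattice, and end-binding and CAMSAP proteins mark the plus and the minus ends.

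Libraries had between 36.4 M and 87.6 M read pairs, and the aligned share of reads was 47.5% to 54.1%. Levels are the deposited log2 values, which the authors normalised for gene length and depth, and library medians lay between 4.30 and 4.48. On this scale Fermt1 (kindlin-1) lay between 5.18 and 6.0 in α9k1-naive, between 6.42 and 7.73 in α9k1-crush and between 0.42 and 0.80 in the GFP libraries. Itga9 (α9 integrin) lay between 5.53 and 7.51 in α9k1-crush and between 2.38 and 5.16 in α9k1-naive, whose lowest library was level with the highest GFP-naive library at 2.40. Both genes were thus higher in every α9k1-crush library than in any α9k1-naive library. The part of this difference in the comparisons that use both groups was not tested. All 9 neuronal markers were detected (summed level 11.98 to 13.02 in log2), but the satellite glia list (Apoe, Fabp7, Glul and others, 6 of 6 detected) summed to 14.05 to 16.76. Nearly all of that sum was Apoe (group means 14.28 to 16.46), and the next genes, Fabp7 and Glul, had group means of 7.01 to 9.77 and 7.86 to 8.90. Fewer cells of a type and less RNA per cell cannot be told apart in these bulk libraries.

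The tubulin genes share sequence, and this bears on how their values can be read. The start of the coding sequence is shown for 6 of the 7 β-tubulin members, from the spliced GENCODE M21 transcripts (GRCm38, mouse), because this is also the stretch whose protein product is recognised on the ribosome when cells degrade tubulin mRNA in response to free dimer. The first 12 bases are in capitals.
Tubb2a: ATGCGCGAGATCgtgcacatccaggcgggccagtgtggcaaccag
Tubb2b: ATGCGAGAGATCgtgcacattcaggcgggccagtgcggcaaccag
Tubb3: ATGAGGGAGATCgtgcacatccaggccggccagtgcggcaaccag
Tubb4a: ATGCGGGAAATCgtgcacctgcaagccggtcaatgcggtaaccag
Tubb4b: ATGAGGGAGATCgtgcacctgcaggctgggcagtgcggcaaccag
Tubb5: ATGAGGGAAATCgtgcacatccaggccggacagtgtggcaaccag
Over these 45 bases the fewest differences from Tubb5 were the 3 of Tubb3 and the most were the 8 of Tubb4a. Tuba1a, Tuba1b and Tuba1c lie in a cluster on chromosome 15 (Tuba1b from 98931425 to 98934565, Tuba1a from 98949841 to 98953551, Tuba1c from 99029891 to 99038105). Of all stretches of 75 bases (the bases per read in the library metrics) in their transcripts, 68.25%, 71.9% and 56.66% for Tuba1a, Tuba1b and Tuba1c also occur in transcripts of other genes, among them one another and pseudogenes. The methods of the study give a shorter read, for which the shares were not computed. The share was 43.23% for Tubb2a, 32.16% for Tubb2b and 37.8% for Tubb4b. Counting can split such reads between copies, so the values of these 6 genes are uncertain one by one. Tuba4a (chromosome 1), Tubb3, Tubb4a, Tubb5, Tubb6 and the neurofilament genes shared no such stretch on the same strand. These letters and shares are those of the mouse reference used for alignment. If the animals were rats, as the methods say, they do not describe the RNA that was sequenced, and the same holds for the promoter letters.

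Neurofilament genes separated the α9k1-naive libraries from all others. Nefl, the light subunit that the filament cannot form without (chromosome 14), had levels of 11.52, 10.91, 11.36, 11.08 and 11.50 in GFP-naive and between 9.29 and 9.62 (median 9.39) in α9k1-naive. It had levels of 12.21, 12.58, 11.72 and 11.89 in GFP-crush and of 12.82, 11.90, 12.93 and 12.57 in α9k1-crush. All 6 α9k1-naive libraries lay below every library of the other 3 groups, and the crush groups overlapped each other.
Nefm, the medium subunit, was at 10.82, 10.22, 10.58, 10.51 and 10.76 in GFP-naive, between 8.04 and 8.55 (median 8.22) in α9k1-naive, at 11.55, 11.87, 11.01 and 11.25 in GFP-crush and at 11.66, 11.14, 11.78 and 11.33 in α9k1-crush. Nefh, the heavy subunit of large-calibre axons, was at 9.83, 9.02, 9.62, 9.12 and 9.47 in GFP-naive, between 7.03 and 7.42 (median 7.22) in α9k1-naive, at 10.24, 10.59, 9.69 and 9.82 in GFP-crush and at 10.59, 9.92, 10.73 and 10.61 in α9k1-crush. Both repeated the order seen for Nefl, except that for Nefh 1 GFP-naive library (9.83) reached into the GFP-crush range. Nefl and Nefm lie on opposite strands, and 1108 bases of the first Nefl exon (chr14:68083863-68084970, GRCm38) are also annotated as exon of Nefm. The counting is not stated to have used strand, and 49.9% to 50% of reads per library lay on the strand of the transcript in the metrics, so reads from these bases cannot be told apart and the values of both genes are uncertain against each other.

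**Figure D1:**
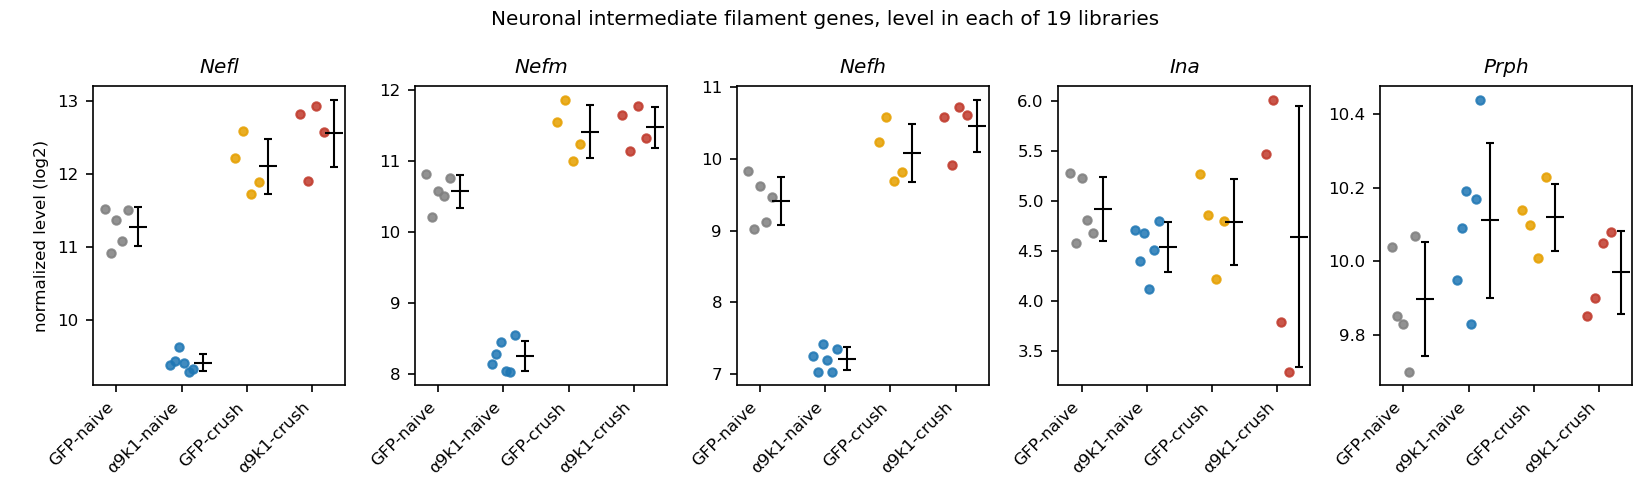
Normalised level (log2) of the 5 neuronal intermediate filament genes in each of the 19 libraries, 1 point per library, with the mean ± SD of each group beside the points. The 6 α9k1-naive libraries of Nefl, Nefm and Nefh lie below all others, whereas those of Ina and Prph overlap the other groups. The vertical axes differ between panels and do not start at 0.

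α9k1-naive was compared with GFP-naive. These groups had no lesion and differed in the viruses given, α9-V5 with kindlin1-GFP against fGFP. The limma model took the 4 groups and 3 covariates from the library metrics, and calls were made at p under 0.1 after Benjamini-Hochberg adjustment over 12629 genes. Nefm was lower by 5.34-fold (log2FC = -2.42, SE 0.21, adjusted p = 1.26e-06), Nefh by 4.98-fold (log2FC = -2.32, SE 0.25, adjusted p = 1.17e-05) and Nefl by 4.28-fold (log2FC = -2.10, SE 0.23, adjusted p = 1.54e-05). These calls held when any 1 of the 19 libraries was left out, with log2FC between -2.88 and -2.02. Prph, the intermediate filament of small-diameter and regenerating neurons, was higher (log2FC = 0.34, SE 0.13, adjusted p = 0.0664), with 9.70 to 10.07 in GFP-naive and 9.83 to 10.44 in α9k1-naive. The groups overlapped for Prph, and the call was lost without covariates and without any 1 of 4 libraries (α9k1-naive replicate 5 or 6, GFP-naive replicate 2 or 4; the lowest log2FC was 0.15). Ina (α-internexin), which joins neurofilaments in central axons, was not called (log2FC = -0.17, SE 0.50).

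In total, 6 members rose and 11 fell in this comparison, or 11.8% and 21.6% of the 51, beside 11.4% and 17.6% of all genes tested. The median log2FC was -0.07 over the members and -0.08 over all genes. The members as a whole were thus near the background in both directions.

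Among the tubulins, Tubb6 and Tuba4a moved in opposite directions. Tubb6, a β-tubulin that is widely expressed outside neurons, was at 6.15, 6.24, 6.10, 6.14 and 6.13 in GFP-naive and between 6.89 and 7.18 (median 7.01) in α9k1-naive, with no overlap (log2FC = 0.67, SE 0.11, adjusted p = 0.000538). The call of Tubb6 held with any 1 library left out but was lost with the replicate block. Tuba4a, an α-tubulin that lacks the encoded C-terminal tyrosine of the other members, was at 6.32, 6.29, 6.29, 6.13 and 6.14 in GFP-naive and between 5.40 and 5.95 (median 5.72) in α9k1-naive (log2FC = -0.72, SE 0.17, adjusted p = 0.00839). Tuba1a, the main α-tubulin of growing axons, was higher by 0.29 (SE 0.10, adjusted p = 0.0433), but 1 α9k1-naive library (11.47) lay within the GFP-naive range of 11.39 to 11.63. The other 8 α- and β-tubulin members, Tubb3 among them (9.85 to 10.03 in GFP-naive, 9.45 to 10.06 in α9k1-naive), were not called. None of the 5 folding cofactors (Tbca to Tbce) and neither γ-tubulin was called.

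Stmn4, a neuronal stathmin, rose (5.40 to 6.26 in GFP-naive, 6.03 to 7.28 with median 6.87 in α9k1-naive; log2FC = 0.80, SE 0.21, adjusted p = 0.0148), and 1 of the 6 α9k1-naive libraries lay within the GFP-naive range. Stmn1 to Stmn3 were not called. Of the plus-end proteins, Mapre3 (EB3, the neuronal end-binding protein) fell, from 6.60, 6.29, 6.43, 6.37 and 6.25 to between 5.74 and 6.07 (median 5.93), without overlap (log2FC = -0.43, SE 0.12, adjusted p = 0.0207). Mapre1 (EB1) rose by 0.38 (SE 0.14, adjusted p = 0.0631), with overlapping groups (5.19 to 5.89 and 5.63 to 5.85). The call of Mapre1 needed the covariates (0.22, adjusted p = 0.157 without them) and was lost without GFP-crush replicate 3 or GFP-naive replicate 1 or 4 (0.28 to 0.63 over the 19 fits that left out 1 library).
Crmp1, a collapsin response mediator, was at 5.88, 5.68, 5.28, 5.62 and 5.62 in GFP-naive and between 5.98 and 6.55 (median 6.32) in α9k1-naive (log2FC = 0.49, SE 0.15, adjusted p = 0.0299). No library of either group entered the range of the other for Crmp1. The 4 Dpysl members of the same family were not called.

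4 of the 7 structural MAPs fell and none rose (57.1% lower, beside 17.6% of all genes), whereas without covariates 3 were called lower and 1 higher (Map4, 0.30, adjusted p = 0.0849). Map1b, the MAP of growing axons, was at 8.79, 8.01, 8.90, 7.97 and 9.06 in GFP-naive and between 6.71 and 7.69 (median 7.39) in α9k1-naive (log2FC = -0.87, SE 0.31, adjusted p = 0.0553). Map1a, its counterpart in mature neurons, was at 7.74, 7.61, 7.75, 7.60 and 7.57 in GFP-naive and between 6.82 and 7.19 (median 7.14) in α9k1-naive (log2FC = -0.69, SE 0.14, adjusted p = 0.00319). Both had groups that did not overlap, although the call of Map1b was lost in 3 of the 19 fits with 1 library left out (without α9k1-naive replicate 6, GFP-crush replicate 3 or GFP-naive replicate 1; log2FC -1.06 to -0.74) and with the replicate block. Map2 (log2FC = -0.62, SE 0.17, adjusted p = 0.0175) and Map6 (log2FC = -0.56, SE 0.18, adjusted p = 0.0334) were called lower, although the levels of Map2 overlapped (5.14 to 5.48 in GFP-naive, 4.55 to 5.60 in α9k1-naive) and its call was absent without covariates (log2FC = -0.08). Mapt (tau), Map4 and Map1s were not called. Camsap2, which caps minus ends, was lower by a call that also needed the covariates (log2FC = -0.46, SE 0.17, adjusted p = 0.0606; -0.12 without them). Fign (fidgetin, an AAA-type microtubule-severing enzyme) fell from 3.58, 3.62, 3.56, 3.92 and 3.79 to between 1.07 and 2.58 (median 1.90; log2FC = -2.05, SE 0.32, adjusted p = 0.000311), while the other severing enzymes, Spast and Katna1, were not called. On the length-normalised scale Fign had the lowest mean level of the 51 genes (2.64).
With only the 11 libraries of the naive groups in the fit, 7 members were called lower, and with α9k1-naive replicate 6 left out 2 were called higher, not 6.

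**Figure D2:**
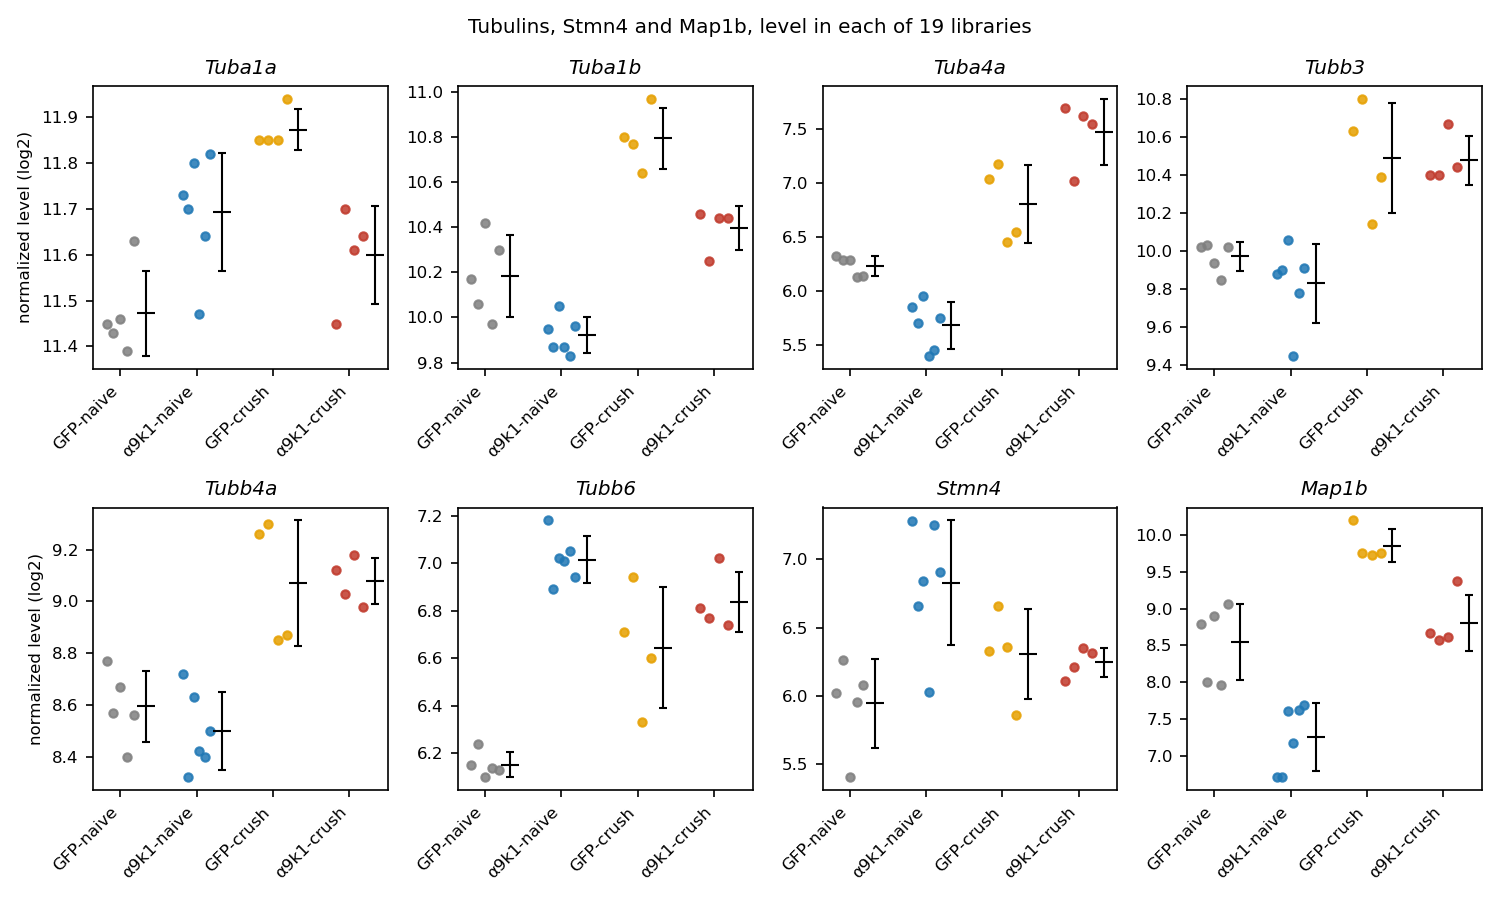
Normalised level (log2) of 6 tubulin genes, Stmn4 and Map1b in each library, 1 point per library, with the mean ± SD of each group beside the points. The GFP-crush libraries of Tuba1a, Tuba1b, Tubb3, Tubb4a and Map1b lie above the GFP-naive libraries, and Tuba4a and Tubb6 move in opposite directions in α9k1-naive. The vertical axes differ between panels and do not start at 0.

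GFP-crush was compared with GFP-naive, which asks what remained of the lesion after 8 weeks without regeneration in the spinal cord. Of the 11 α- and β-tubulins, 9 were called higher and none lower, and all 11 had a positive log2FC. The 11 were not tested as a set. Of these 9 calls, 6 were kept after quantile normalisation (Tuba1a, Tuba1c and Tubb4b were lost, with a median over the 11 of 0.33) and all 9 with median-centred libraries (median 0.56). After the α9k1 libraries were taken out of the fit, 1 of the 9 calls was kept (Tubb6), with a median over the 11 of 0.51. In the main fit the median log2FC of the 11 was 0.42, beside -0.08 over all genes. The 9 neuronal markers (Snap25, Uchl1 and others) also had a higher summed level in GFP-crush (12.90 to 13.02) than in the GFP-naive libraries (12.33 to 12.62), without overlap. In the fit 3 of these markers were called higher and 1 lower, with a median log2FC of 0.14. Their part in the rise of the tubulins was not tested. Over the 51 genes, 15 rose and 2 fell (29.4% and 3.92%), beside 7.39% and 15.7% of all genes tested. The balance over all genes turned with the scaling, to 9.55% and 10.9% after quantile normalisation and to 14.5% and 9.34% with median-centred libraries (median log2FC 0.01 and 0.06), where 11 and 21 members were called higher and 1 lower.
Tuba1b was at 10.17, 10.06, 10.42, 9.97 and 10.30 in GFP-naive and at 10.80, 10.77, 10.64 and 10.97 in GFP-crush (log2FC = 0.62, SE 0.12, adjusted p = 0.00576). Tubb3, the neuronal β-tubulin, was at 10.02, 10.03, 9.94, 9.85 and 10.02 in GFP-naive and at 10.63, 10.80, 10.14 and 10.39 in GFP-crush (log2FC = 0.55, SE 0.13, adjusted p = 0.0141). Tubb4a was at 8.77, 8.57, 8.67, 8.40 and 8.56 in GFP-naive and at 9.26, 9.30, 8.85 and 8.87 in GFP-crush (log2FC = 0.55, SE 0.13, adjusted p = 0.0155). None of these groups overlapped, and 17 members in all lay wholly above GFP-naive (33.3%, beside 7.59% of all genes). Tubb6 reached 6.71, 6.94, 6.33 and 6.60 (log2FC = 0.60, SE 0.11, adjusted p = 0.00334) and Tuba4a 7.04, 7.18, 6.45 and 6.55 (log2FC = 0.56, SE 0.18, adjusted p = 0.0473), both above every GFP-naive library. Tuba1a rose by 0.37 (SE 0.10, adjusted p = 0.0208), with 11.85, 11.85, 11.85 and 11.94 in GFP-crush. Tuba1c, Tubb5 and Tubb4b rose by 0.42, 0.38 and 0.32. Tubb2a (0.26) and Tubb2b (0.11) were not called.

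The same lesion raised Tubg1, a γ-tubulin of the nucleating ring (5.78 to 5.93 in GFP-naive; 6.39, 6.42, 6.21 and 5.96 in GFP-crush; log2FC = 0.34, SE 0.13, adjusted p = 0.0826) and Stmn3 (10.21 to 10.48; 10.89, 10.98, 10.79 and 10.75; log2FC = 0.37, SE 0.10, adjusted p = 0.0307). Map1b rose by 2.23-fold, to 10.20, 9.75, 9.73 and 9.75 (log2FC = 1.16, SE 0.31, adjusted p = 0.0223), all above the highest GFP-naive library. Nefl (log2FC = 1.02, SE 0.24, adjusted p = 0.0116), Nefm (log2FC = 0.96, SE 0.21, adjusted p = 0.00948) and Nefh (log2FC = 0.79, SE 0.25, adjusted p = 0.0498) rose too. Map1s (log2FC = -0.37, SE 0.13, adjusted p = 0.0614) and Fign (log2FC = -1.06, SE 0.32, adjusted p = 0.0379; 1.74, 2.81, 2.92 and 2.81 in GFP-crush) fell. No folding cofactor, plus-end protein, CRMP family member or CAMSAP was called.
With only the 9 GFP libraries in the fit, 4 members kept a call (Tubb6, Map1b, Nefl and Nefm), with fewer libraries to estimate the spread, and with GFP-naive replicate 2 left out 9 members were called higher. The call of Nefh was lost without GFP-crush replicate 1 or 2 or GFP-naive replicate 2 (lowest log2FC 0.58). That of Fign was lost without GFP-crush replicate 1 or 2 (log2FC -1.25 to -0.82). Over the 19 fits with 1 library left out, Tubg1 was called in 12 (log2FC 0.27 to 0.44), Tubb4b in 14 (0.26 to 0.38), Map1s in 14 (-0.48 to -0.26) and Tuba4a in 16 (0.44 to 0.68). The call of Map1s was also lost under quantile normalisation, median centring and the replicate block.

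**Figure D3:**
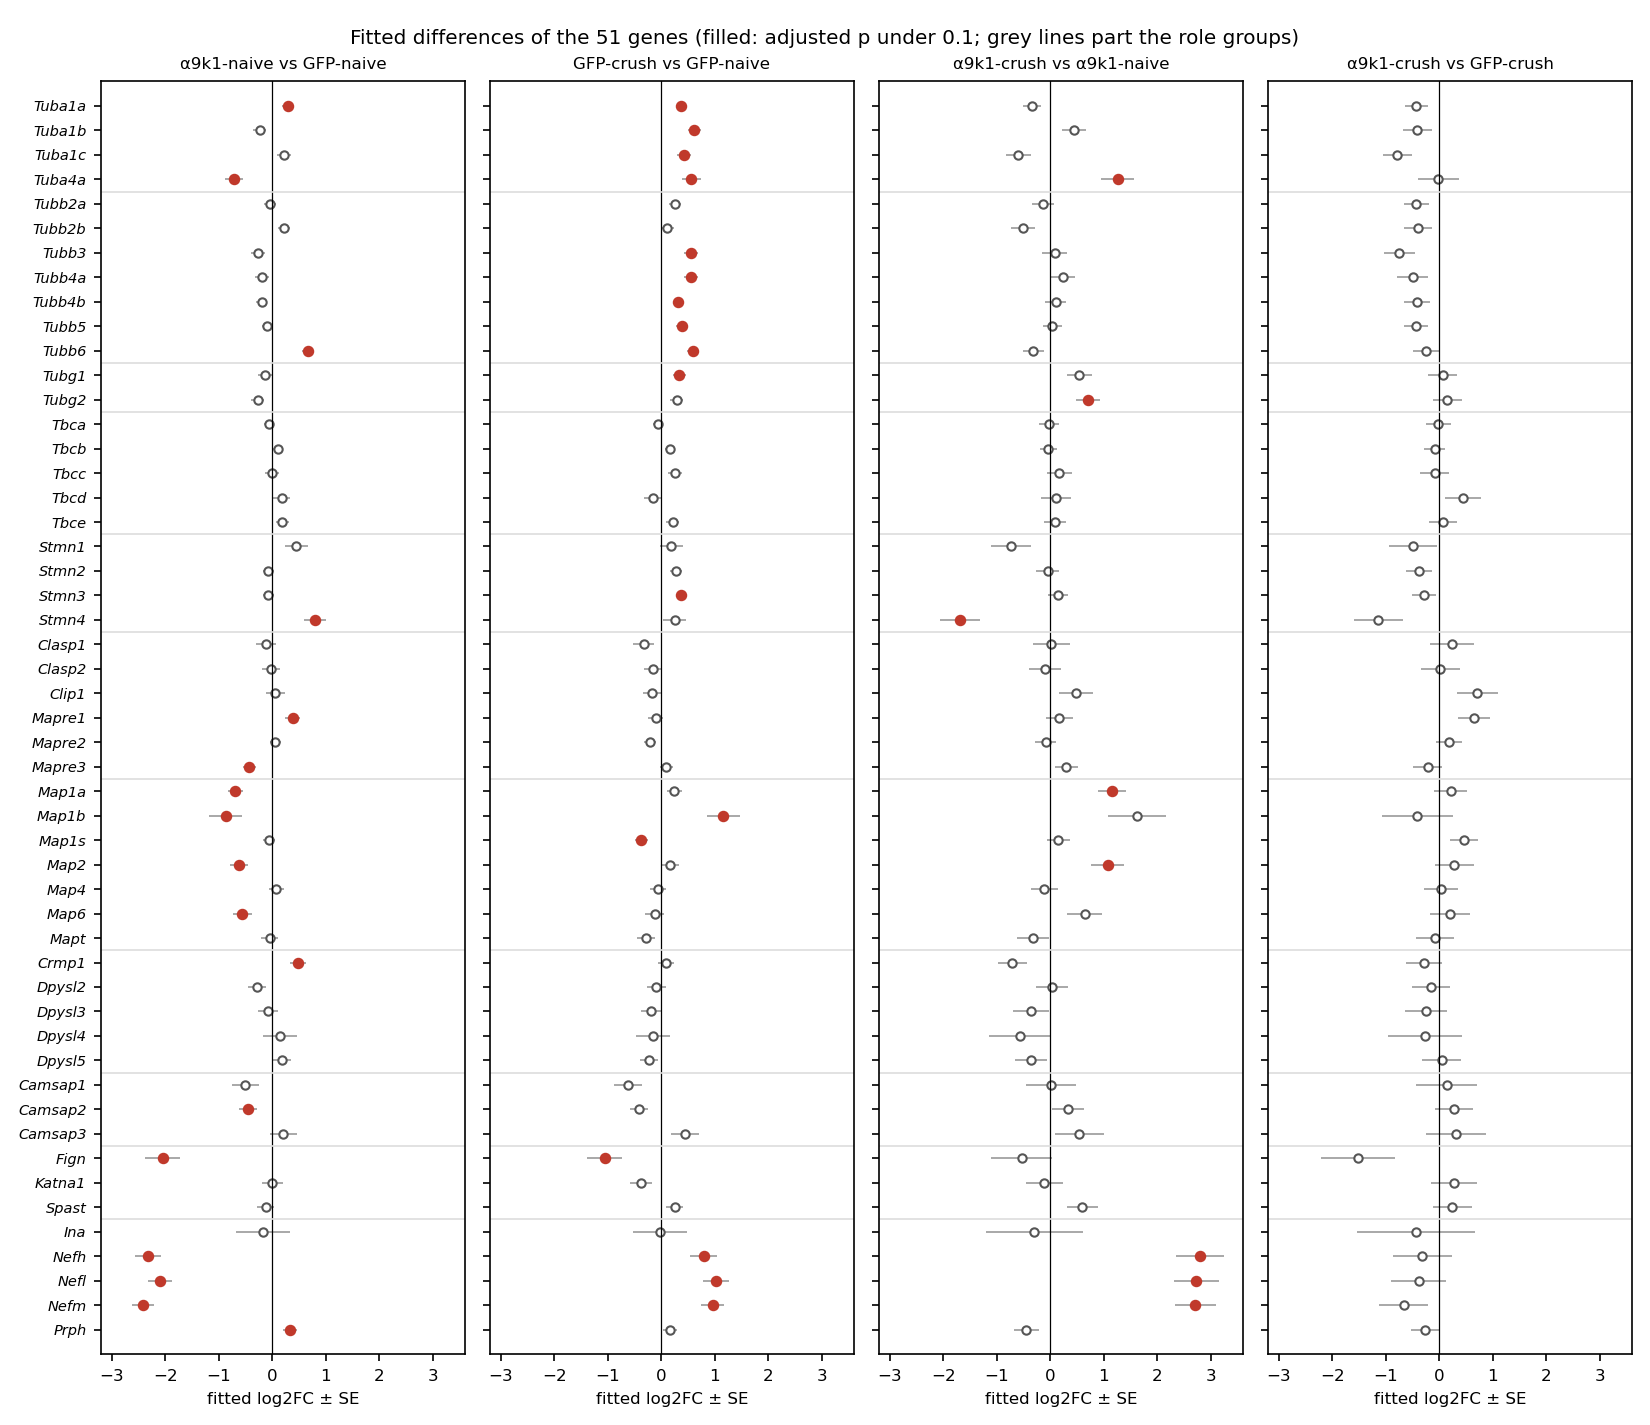
Fitted log2 differences (± SE, horizontal axis) of the 51 genes in the 4 comparisons between groups, 1 row per gene, grouped by role with grey lines between groups. Filled points were called at an adjusted p under 0.1. The 3 neurofilament genes lie at about -2 in the first panel and above 2.5 in the third, the tubulins lie to the right of 0 in the second, and the last panel holds no filled point.

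α9k1-crush was compared with α9k1-naive. It shares the α9k1-naive libraries with the first comparison, so that low levels in these libraries enter both. Nefh rose by 6.90-fold (log2FC = 2.79, SE 0.45, adjusted p = 0.00376), Nefl by 6.65-fold (log2FC = 2.73, SE 0.42, adjusted p = 0.00275) and Nefm by 6.53-fold (log2FC = 2.71, SE 0.38, adjusted p = 0.00154), and the calls held in all 19 fits with 1 library left out. Map1a rose to 8.43, 8.18, 8.40 and 8.03 (log2FC = 1.15, SE 0.26, adjusted p = 0.0192), Map2 to 6.60, 6.36, 6.95 and 6.36 (log2FC = 1.07, SE 0.31, adjusted p = 0.0549), Tuba4a to 7.70, 7.02, 7.62 and 7.55 (log2FC = 1.26, SE 0.31, adjusted p = 0.0310) and Tubg2 to 5.0, 4.76, 5.09 and 4.85 from 4.09 to 4.49 (log2FC = 0.70, SE 0.22, adjusted p = 0.0781). None of these 7 genes had overlapping groups. The call of Tubg2 was close to the threshold and was made in 9 of the 19 fits with 1 library left out (log2FC 0.61 to 0.82). That of Map2 was made in 15 of the 19 (0.81 to 1.31), being lost without α9k1-naive replicate 1 or 4 or GFP-naive replicate 1 or 3, and also with the replicate block. In all 20 members lay wholly above α9k1-naive (39.2%), beside 17.4% of all genes.
Map1b had a log2FC of 1.62 (SE 0.55, adjusted p = 0.103) and was just past the threshold, with 8.67, 8.57, 8.61 and 9.37 in α9k1-crush, all above α9k1-naive. Stmn4 fell, with 6.11, 6.21, 6.35 and 6.31 in α9k1-crush (log2FC = -1.69, SE 0.38, adjusted p = 0.0192). The covariates moved its value by over 1.5 times, since the fit without them gave -0.58 (adjusted p = 0.0310) and the levels of the groups overlapped.
In all, 7 members rose and 1 fell (13.7% and 1.96%), beside 4.47% and 5.27% of all genes. Without α9k1-naive replicate 4, 4 members were called higher and none lower, and with only the 10 α9k1 libraries in the fit Nefh and Nefl alone were called.

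The neurofilament genes can also be read against each other within a library, which does not depend on any scaling shared by all genes of that library. Prph minus Nefl, in log2, was -1.37 ± 0.19 (SD, n = 5) in GFP-naive and 0.70 ± 0.25 (n = 6) in α9k1-naive. After the crush it was -1.98 ± 0.38 with GFP and -2.58 ± 0.45 with α9k1 (n = 4 each). The difference was above 0 in 6 of 6 α9k1-naive libraries (0.42 to 1.11) and below 0 in all 13 others. Ina minus Nefl moved the same way (-4.87 ± 0.28 in α9k1-naive, -6.36 ± 0.27 in GFP-naive), but spread widely in α9k1-crush (-7.91 ± 1.61), where Ina itself was at 5.47, 6.01, 3.79 and 3.29.
The proportions within the triplet changed much less than its level. Nefm minus Nefl was -0.69 ± 0.08 in GFP-naive and -0.68 ± 0.04 in GFP-crush, and -1.15 ± 0.20 in α9k1-naive and -1.08 ± 0.22 in α9k1-crush. The α9k1 libraries thus had the lower Nefm relative to Nefl with or without the crush, although the lowest GFP-naive and the highest α9k1-naive libraries met at -0.78. Reads from the 1108 exon bases that Nefl and Nefm share cannot be told apart, so this proportion is uncertain. Nefh minus Nefl was -1.86 ± 0.14 in GFP-naive and -2.20 ± 0.15 in α9k1-naive, and -2.02 ± 0.04 and -2.09 ± 0.14 in the GFP and α9k1 groups with a crush. These within-library differences took no covariates, and the second covariate of the model differed with the virus. It had 1.99 ± 2.99 in GFP-naive, -2.59 ± 2.69 in α9k1-naive, 3.06 ± 2.24 in GFP-crush and -1.66 ± 2.06 in α9k1-crush. No test was made of the within-library differences.

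Other genes moved with the neurofilaments. The summed level of the neuronal markers was 12.33 to 12.62 in GFP-naive, 11.98 to 12.34 in α9k1-naive, 12.90 to 13.02 in GFP-crush and 12.73 to 12.85 in α9k1-crush, with α9k1-naive lowest and its highest library level with the lowest of GFP-naive. All 6 Schwann cell markers (Mbp, Pmp22, Prx, Mag, Ncmap and Gldn) were called lower in α9k1-naive, against GFP-naive (median log2FC -1.64) and higher in α9k1-crush than in α9k1-naive (median 2.51). Their summed level was 12.21 to 12.58 in GFP-naive, 10.99 to 11.41 in α9k1-naive, 12.54 to 13.16 in GFP-crush and 11.70 to 12.71 in α9k1-crush, and none of the 6 was at 0. Pvalb, a marker of proprioceptors, which are rich in neurofilaments, also fell in α9k1-naive (log2FC = -1.46, SE 0.48, adjusted p = 0.0399) and rose in GFP-crush (1.74, SE 0.48, adjusted p = 0.0258) and α9k1-crush (2.97, SE 0.86, adjusted p = 0.0558, against α9k1-naive). Of the 8 detected markers of large-diameter neurons, 2 rose (Spp1 and Ntrk2) and 2 fell (Pvalb and Maf) in α9k1-naive. Their summed level was higher there (11.63 to 11.97) than in GFP-naive (10.59 to 10.89), but this sum was mostly Spp1. Spp1 had group means of 11.64 and 10.45, and Ntrk2 of 7.12 and 6.7. Besides Pvalb, Runx3 rose and Ntrk2 fell in GFP-crush, and Spp1 and Ntrk2 fell in α9k1-crush against α9k1-naive, with summed levels of 10.44 to 11.07 and 10.36 to 11.30 in the crush groups.
Of the 10 nociceptor markers, 1 was called higher in α9k1-naive and 3 lower in α9k1-crush than in α9k1-naive, with summed levels of 11.68 to 12.65 in GFP-naive, 12.49 to 13.25 in α9k1-naive, 11.28 to 12.66 in GFP-crush and 9.10, 12.19, 11.62 and 11.80 in α9k1-crush, whose replicate 1 (9.10) stood below every other library. Macrophage markers (8 of 10 detected) summed to 7.13 to 7.66 in GFP-naive and to 8.42 or more in every other group, and endothelial and fibroblast markers (6 of 10 detected) to 9.53 to 9.85 in GFP-naive, 6.79 to 8.32 in α9k1-naive, 8.38 to 8.78 in GFP-crush and 7.95 to 8.44 in α9k1-crush. Satellite glia markers, whose sum is mostly Apoe, summed to 15.53 to 15.91, 16.25 to 16.76, 14.60 to 14.91 and 14.05 to 14.63 in these groups, given in the sequence used for the endothelial list. Of the 6 genes, 3 were called higher (Fabp7, Apoe and Glul) and 1 lower (Sox10) in α9k1-naive, 5 fell in GFP-crush against GFP-naive, and 4 fell in α9k1-crush against α9k1-naive. Of the 6 detected axotomy genes, Atf3 (log2FC = 2.99, SE 0.17), Jun (1.44, SE 0.12) and Gal (2.12, SE 0.40) rose and Npy (-2.23, SE 0.82) fell in α9k1-naive. In GFP-crush, against GFP-naive, Npy rose and Atf3 and Jun fell, and in α9k1-crush, against α9k1-naive, Atf3, Jun and Gal fell. Against GFP-crush, however, Atf3 and Jun were called higher in α9k1-crush and no axotomy gene lower. The group means there were 8.64 and 6.52 for Atf3, and 8.1 and 7.34 for Jun. The part of the mix of cells in the values of the tubulin and neurofilament genes was not tested.

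**Figure D4:**
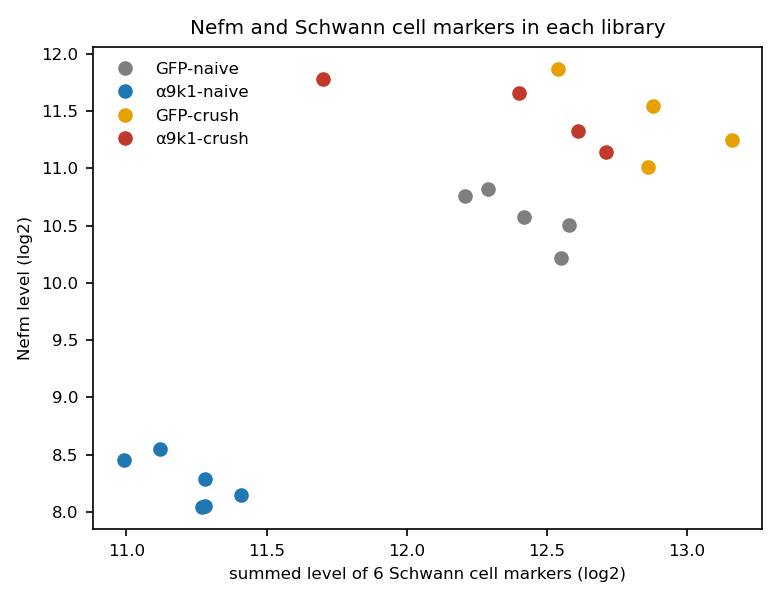
Level of Nefm (vertical axis, log2) against the summed level of 6 Schwann cell markers (horizontal axis, log2), 1 point per library, coloured by group. The 6 α9k1-naive libraries lie apart at the lower left, with Nefm at 8.04 to 8.55 and the marker sum at 10.99 to 11.41. The axes do not start at 0.

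α9k1-crush was compared with GFP-crush. By the study, many α9k1-crush neurons were regenerating axons into the spinal cord and GFP-crush neurons were not. Regeneration and the viruses given cannot be told apart in this comparison. No member was called in either direction by limma, beside 0.728% of all genes called higher and 0.182% lower. At an unadjusted p under 0.05 there were 5 members (9.80%, beside 9.11% of all genes, and thus near the background): Tuba1c, Tubb3, Stmn4 and Fign with a negative and Mapre1 with a positive log2FC. The neurofilament genes had log2FC of -0.39 for Nefl (95% interval -1.48 to 0.70), -0.67 for Nefm (-1.66 to 0.31) and -0.32 for Nefh (-1.49 to 0.85). These signs turned without covariates, where the values were 0.45, 0.06 and 0.38, and Nefl was called higher (adjusted p = 0.079). With covariates all 11 α- and β-tubulins had a negative log2FC (median -0.43, beside 0.01 over all genes), and none of them was called. Without covariates their median was -0.22, Tuba4a was called higher (0.66, adjusted p = 0.00428, against -0.02 with covariates) and Tubb6 (0.19) and Tubb4a (0.01) were above 0.
The 3 covariates weighed most heavily here. The variance of this comparison was 3.111 in units of a gene's residual variance, against 0.5 without covariates. It was also raised for α9k1-crush versus α9k1-naive (2.123 against 0.417) and for the interaction (2.784 against 0.867). The library metrics themselves differed between the crush groups. Component 1 had -4.75 ± 1.57 in GFP-crush and 3.29 ± 4.57 in α9k1-crush, component 2 had 3.06 ± 2.24 and -1.66 ± 2.06, and component 3 had -0.32 ± 1.28 and -3.56 ± 0.83. Without covariates 19 members were higher and 15 lower, beside 29.6% and 28.3% of all genes. The libraries of the groups did not overlap for 16 members above and 13 below (31.4% and 25.5%), beside 20.0% and 20.8% of all genes.

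Those 19 and 15 genes fell by role and by length. Without covariates 6 of the 7 structural MAPs, all 3 CAMSAPs and 4 of the 6 plus-end proteins were higher, and 7 of the 11 α- and β-tubulins and 3 of the 5 folding cofactors were lower. The 3 highest were Map2 (log2FC = 1.5), Camsap2 (1.31) and Clasp2 (1.24), and the 3 lowest were Dpysl2 (-1.07), Map1b (-1.05) and Tbca (-0.87), named after their values were seen. With covariates these genes had log2FC of 0.28, 0.27, 0.02, -0.16, -0.41 and -0.02. The exonic length of the 19 higher genes ranged from 3380 to 21844 bases (median 8368) and that of the 15 lower genes from 811 to 15846 bases (median 2088). Spearman's rho between exonic length and log2FC over the 51 genes was 0.65 without and 0.50 with covariates, beside 0.41 and 0.19 over the 12610 genes with a length. Genes are not independent replicates and share the same 8 libraries here. Length and role went together for the MAPs and CAMSAPs, all of 6119 bases or more, and for the tubulins, all of 3701 bases or fewer. They did not throughout, since among the folding cofactors Tbcd (8096 bases) and Tbce (4540) had values of 0.98 and 0.23 without covariates and Tbca, Tbcb and Tbcc (811 to 1442) of -0.87, -0.60 and -0.42. Against the order of length, Map1b (15846 bases, -1.05), Stmn2 (5602, -0.40) and Dpysl2 (4520, -1.07) were called lower without covariates, named after their values were seen, and Map1b was the 1 structural MAP of 7 that was lower.

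**Figure D5:**
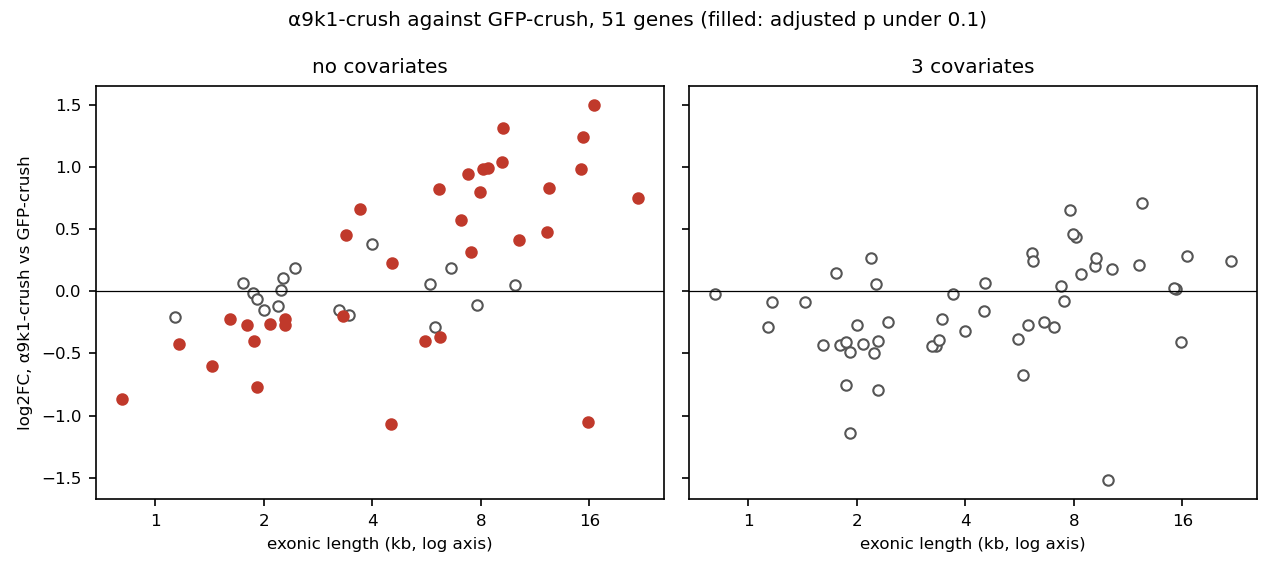
Log2 difference between α9k1-crush and GFP-crush (vertical axis) against exonic length (horizontal axis, kb, log scale) for the 51 genes, without covariates on the left and with 3 covariates on the right. Filled points were called at an adjusted p under 0.1. On the left the called genes with positive values are longer (median 8368 bases) than those with negative values (median 2088 bases), and on the right no gene was called.

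The interaction (the α9k1 difference among crush libraries less the α9k1 difference among naive ones) was called for 5 members. It was positive for Nefh (2.0, SE 0.52, adjusted p = 0.0848) and Nefm (1.74, SE 0.44, adjusted p = 0.0756), beside 1.35% of all genes called positive. It was negative for Stmn4 (-1.95, SE 0.44, adjusted p = 0.0482), Tubb6 (-0.92, SE 0.23, adjusted p = 0.0712) and Tuba1c (-1.02, SE 0.26, adjusted p = 0.0793), beside 0.847%. Nefl had a value of 1.71 (SE 0.48, adjusted p = 0.117) and Tuba1a of -0.72 (SE 0.20, adjusted p = 0.103). Without covariates Nefl, Nefm and Nefh all were called (2.32, 2.38 and 2.58), and Stmn4, Tubb6 and Tuba1c were called with smaller values (-0.94, -0.67 and -0.51). The 5 calls made with covariates were close to the threshold: of the 19 fits with 1 library left out, Nefh was called in 7, Nefm in 10, Tubb6 in 10, Tuba1c in 8 and Stmn4 in 14, always with the same sign. None of them was kept with the replicate block, and those of Nefh and Nefm were also lost with median-centred libraries.

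Of the 51 genes, 24 were called in none of the 5 contrasts. They included all 5 folding cofactors, Stmn1 and Stmn2, Tubb2a and Tubb2b, Clasp1, Clasp2, Clip1 and Mapre2, Mapt and Map4, Dpysl2 to Dpysl5, Camsap1 and Camsap3, Katna1 and Spast, and Ina. The farthest values among them were for Stmn1 (interaction -0.93, SE 0.42, adjusted p = 0.341) and Clip1 (α9k1-crush versus GFP-crush 0.71, SE 0.39, adjusted p = 0.616).

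Other genes of the microtubule and filament system were taken from lists of 88 genes, of which 67 had values. In α9k1-naive 1 was higher and 15 were lower than in GFP-naive (1.49% and 22.4%, beside 11.4% and 17.6% of all genes), and in GFP-crush 3 were higher and 13 lower (4.48% and 19.4%, beside 7.39% and 15.7%). The shares called lower were thus near those of all genes. None was called between the crush groups by limma, and α9k1-crush had 4 higher and 1 lower than α9k1-naive (5.97% and 1.49%, beside 4.47% and 5.27%). Of 14 other MAPs, 5 fell in α9k1-naive, with the smallest adjusted p for the doublecortin-like kinase Dclk2 (log2FC = -0.79, SE 0.18, adjusted p = 0.00664). Of 13 other plus-end and polymerase proteins 4 fell there, among them Clip3 (-0.65, SE 0.17, adjusted p = 0.0152). The kinase Mark1, which phosphorylates MAPs, fell in α9k1-naive (-0.84, SE 0.19, adjusted p = 0.00619) and rose in α9k1-crush against it (1.35, SE 0.35, adjusted p = 0.0342), as did the tubulin polyglutamylase Ttll7 (-0.72, SE 0.16, adjusted p = 0.00415; 1.12, SE 0.28, adjusted p = 0.0310). Of the other intermediate filaments and linkers, Gfap of activated glia rose in α9k1-naive (1.27, SE 0.25, adjusted p = 0.00198) while the linker Plec fell (-0.59, SE 0.12, adjusted p = 0.00286). Both acetylation enzymes called in GFP-crush were lower, Atat1 (-0.52, SE 0.18, adjusted p = 0.0709) and the deacetylase Hdac6 (-0.47, SE 0.15, adjusted p = 0.0502), while none of the 8 detected genes of the γ-tubulin ring was called there.

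Promoter sequence was available for 33 of the 51 genes (RefSeq, GRCm38.p6, 250 bases before to 50 after the start). The promoters of Map1b, which fell in α9k1-naive and rose in GFP-crush, and of Prph, which was called higher in α9k1-naive, are shown with the letters TATAAA in capitals.
Map1b, chr13:99516553-99516852, minus strand: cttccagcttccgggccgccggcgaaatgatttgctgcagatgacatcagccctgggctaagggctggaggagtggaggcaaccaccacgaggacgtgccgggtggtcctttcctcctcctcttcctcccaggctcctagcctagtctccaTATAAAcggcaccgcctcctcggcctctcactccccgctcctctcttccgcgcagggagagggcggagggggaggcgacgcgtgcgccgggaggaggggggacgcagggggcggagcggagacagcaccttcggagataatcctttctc
Prph, chr15:99054924-99055223, plus strand: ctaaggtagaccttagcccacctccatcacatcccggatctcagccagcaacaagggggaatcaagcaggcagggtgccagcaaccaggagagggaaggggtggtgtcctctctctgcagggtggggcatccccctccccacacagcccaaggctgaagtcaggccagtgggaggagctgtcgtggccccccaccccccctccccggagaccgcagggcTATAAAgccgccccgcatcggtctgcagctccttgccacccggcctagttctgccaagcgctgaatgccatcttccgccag
TATAAA, on either strand, was found in 6 of the 33 promoters (Tubb2a, Tubb4b, Mapre1, Clasp2, Map1b and Prph), beside 15.67% of the promoters of 27025 genes. The AP-1 letters TGAGTCA were found in 0 of 33, beside 5.95%, the CRE letters TGACGTCA in 3 (Tubb2a, Tbcc and Clasp2), beside 2.03%, and the E-box letters CACGTG in 2, beside 8.09%. A match is a description of these letters in this window only.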

How the data were processed

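Neurons were sorted by FACS and profiled by RNA-seq (SMART-Seq v4) in 19 libraries, grouped by their labels. The authors used STAR to align reads to mouse mm10 (GRCm38), counted with Salmon, removed genes with low counts, and deposited log2 values after a pseudocount and cqn normalisation for gene length and depth; versions are not given in the sources used here. The deposited values carry no gene names, and their order was taken from the deposited gene table (Spearman's rho of gene means with the authors' average column 0.999, at most 0.0827 with the order shifted). That average column was made by the authors' limma model, is deposited as a score on another scale, and served only for this check. The authors' own log2 fold changes and p-values were also deposited and were not used. The deposited library metrics (48 Picard columns) hold counts, fractions, percentages and coverage ratios as the authors computed them.

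One limma fit (limma 3.58.1, R 4.3.3) took all 12629 genes, 19 libraries, the 4 groups and the first 3 principal components of the scaled metrics (45.9%, 24.1% and 11.5% of their variance). Batch, in the study's model, was not a term here, since no batch is given for the libraries. Counting error cannot be given from normalised values, and the spread between libraries includes it. The fit was tested on simulated data. Lists, roles, tests and alternatives (covariates, groups in the fit, low-value filter, scaling, weights, replicate block, threshold, each library left out) were chosen, like the members, with earlier results of these data known. Called members were named by role, and given per library for at most the 3 with the smallest adjusted p per role. Of members never called, the 2 with the largest values per role could be named, and of pathway genes at most the 2 called with the smallest adjusted p per list. Shared stretches and exonic lengths came from GENCODE M21. The Schwann cell and satellite glia lists were each shortened by 1 gene that is not reported here.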

Additional observations from a re-analysis of the deposited data

Results flagged for a closer look

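For 21 genes given per library, each of the 4 groups was examined for a library far from the others (84 groups of libraries), by the gap to the nearest library as a share of the group's range (Dixon's test). About 1 in 20 groups would be picked out by chance. In GFP-naive, Tuba1a was far above the rest in replicate 5 (11.63) and Tubg1 in replicate 3 (5.93). In α9k1-naive, Map1a was far below in replicate 5 (6.82). In GFP-crush, Tuba1a was far above in replicate 4 (11.94), Map1b far above in replicate 1 (10.20) and Fign far below in replicate 1 (1.74). In α9k1-crush, Tuba1b (10.25) and Nefh (9.92) were far below in replicate 2, Tubb3 was far above in replicate 3 (10.67) and Map1b far above in replicate 4 (9.37).

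The α9k1 effect was called as different with the crush, by limma's interaction term, for Nefh (2.0), Nefm (1.74), Stmn4 (-1.95), Tubb6 (-0.92) and Tuba1c (-1.02). These calls were close to the threshold. Each was lost in some fits with 1 library left out, and none was kept with the replicate block.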

How the results depend on the processing

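With no covariates the numbers of members called higher and lower were 9 and 17 in the first comparison (between the naive groups), 19 and 15 in the second (between the crush groups), 19 and 6 in the third (GFP, crush against naive), 25 and 5 in the fourth (α9k1, crush against naive) and 18 and 8 in the interaction. The shares of all genes moved too, to 16.5% and 29.5%, 29.6% and 28.3%, 11% and 20.1%, 28.5% and 27.1%, and 23.3% and 16.1% in the same sequence. With the first component only, 17 members were lower in the first comparison, 16 higher and 10 lower in the second, 5 lower in the third, 25 higher and 5 lower in the fourth, and 17 positive and 6 negative in the interaction (all genes: 29.2%; 25% and 23.6%; 17.5%; 27.8% and 26.2%; 19.5% and 13.1%). With only the groups compared, which leaves fewer libraries, 7 were lower in the first, 4 higher and 0 lower in the third, and 2 higher and 0 lower in the fourth (all genes: 14.0%; 2.07% and 5.24%; 0.507% and 1.09%). In the third, 1 was lower after quantile normalisation, median centring or at an adjusted p under 0.05. Median centring left 0 positive interactions, array weights gave 4 and a threshold of 0.05 gave 0, with 1 negative. Array weights gave 4 lower in the fourth comparison. For differences of over 1.5 times, the cause was not tested.

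Replicate numbers did not pair the libraries (25 same-numbered pairs, correlation of deviations -0.269 to 0.149). A replicate block ended the calls of Tubb6, Tuba1a, Stmn4, Crmp1, Mapre3, Prph, Map1b, Map2 and Camsap2 between the naive groups. With a replicate block, 1 member was higher in the first comparison, 1 lower in the third, 4 higher and 0 lower in the fourth, and the interaction had 0 positive and 0 negative calls (all genes: 8.96%; 14.8%; 1.23% and 1.39%; 0.15% and 0.0554%).

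Over the fits that each left out 1 library, the first comparison had 2 to 8 members higher and 9 to 12 lower, the second 0 and 0 throughout, the third 9 to 17 and 1 to 5, the fourth 4 to 8 and 0 to 3, and the interaction 0 to 3 and 0 to 4. Leaving out α9k1-naive replicate 6 ended the calls of Tuba1a, Stmn4, Crmp1, Prph, Map1b and Map2 in α9k1-naive, and GFP-naive replicate 2 those of Tuba4a, Tubb4b, Tubg1, Stmn3, Map1b, Map1s and Nefh in GFP-crush. Of the single values recomputed, which are those called and those named in the text, none that was called with 3 covariates changed sign. Between the crush groups, Nefl was 0.45, Nefm 0.06, Nefh 0.38, Tuba4a 0.66, Tubb4a 0.01, Tubb6 0.19, Fign 0.05 and Mapre1 -0.11 without covariates. With the first component only, Nefl was 0.35, Nefh 0.27, Tuba4a 0.81, Tubb6 0.19, Tubb3 0.02, Stmn4 0.10, Fign 0.03 and Mapre1 -0.05 there. Quantile normalisation gave 0.22 for Nefl and 0.03 for Nefh, and array weights 0.01 for Tuba4a. Also between the crush groups, Map1b was 0.34 and Map2 -0.71 with only the groups compared, Clasp2 -0.07, -0.06 and -0.05 under quantile normalisation, median centring and array weights, and Camsap2 -0.06 with the replicate block. With 1 library left out, Clasp2 ranged from -0.47 to 0.19, Tbca from -0.12 to 0.07, Dpysl2 from -0.54 to 0.09, Map2 from -0.05 to 0.76, Nefl from -0.62 to 0.06, Nefh from -0.66 to 0.23, Tuba4a from -0.32 to 0.18 and Tubb6 from -0.43 to 0.02. Between the naive groups, Ina was 0.02 with the replicate block and ranged from -0.42 to 0.06 with 1 library left out. The within-library differences moved by less than 1 SD.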
